A study of Mus musculus with 10 samples.

Results

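The R-spondins Rspo1 and Rspo3, the receptors Lgr4, Lgr5 and Lgr6, and the crypt markers Ascl2, Smoc2, Lrig1, Prom1 and Cd44 were followed in colon tumors with and without epithelial Wnt secretion. The members were chosen by gene name, and 9 of the 10 names were found among the 16875 gene names of the table. The level of Rspo1 was not analysed here. The tumors were induced in mice aged 6 to 10 weeks with the carcinogen azoxymethane (AOM) and 3 cycles of 2% dextran sulfate sodium (DSS), which inflames the colon. The 5 control tumors carried Wls flox/flox without Cre. Unless it says otherwise, the paper uses tumors that received no tamoxifen as controls. The 5 Villin-WlscKO tumors carried Wls flox/flox and Villin-Cre ERT2, a Cre driven in the intestinal epithelium and activated by tamoxifen, which was given at 80 mg/kg in 5 injections starting 30 days before collection. Wls, or Wntless, is required for cells to secrete Wnt ligands, and stromal cells of these mice keep the gene. Each sample was a macrodissected piece of tumor. How many mice the tumors came from is not given in the sources used here, so the p-values measure the spread between tumors.

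R-spondins are secreted proteins that bind the receptors LGR4, LGR5 and LGR6 and remove the membrane ubiquitin ligases ZNRF3 and RNF43, which otherwise clear the Wnt receptor Frizzled from the cell surface. R-spondins thereby amplify a Wnt signal without replacing it. In the colon they are made by stromal cells beneath the crypts, while Lgr5 marks stem cells at the crypt base, where the transcription factor Ascl2 is also active.

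Wls fell from a mean of 72.9 FPKM (fragments per kilobase of transcript, scaled to the library's mapped fragments; range 61.3 to 79.9) in control tumors to 6.37 FPKM (range 2.03 to 11.7) in Villin-WlscKO tumors (log2 change -3.59, limma adjusted p = 0.000337). Values of each tumor summed to between 1207683 and 1533885 FPKM, and the read depth is unknown. Xist, expressed from the inactive X of female cells, measured 439 to 701 FPKM with the deletion and at most 0.420 FPKM without it, and the Y-linked gene Eif2s3y showed the opposite pattern. Genotype, tamoxifen and sex therefore cannot be told apart in any comparison below. In whole tumor pieces, fewer cells of a type and less RNA per cell cannot be told apart either. The epithelial markers Krt19, Krt8 and Epcam were the most abundant of their list, and the summed level of its 10 genes was 6226 to 8799 FPKM in control and 7613 to 9641 FPKM in Villin-WlscKO tumors. Their median log2 change was 0.26. Their mean log2(FPKM + 1) per tumor, used below as the epithelial score, was 7.88 to 8.28 in control and 8.24 to 8.64 in Villin-WlscKO tumors. None of the 10 passed by limma, although 6 were higher at an unadjusted p under 0.05, where 13.9% of all genes were. The part of this difference in the changes of the crypt genes was not tested.

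Of the members, only Lrig1 passed the threshold of an adjusted p under 0.05 and was higher in Villin-WlscKO tumors. It was 1 of the 8 members tested, and 10.9% of all 16757 genes tested passed in either direction, so the share of members is near this background. In the higher direction 6.12% of all genes passed, and in the lower direction 4.75% passed while 0 members did, with 0 members lower at an unadjusted p under 0.05. At that unadjusted threshold 11.9% of all genes were lower. The median log2 change of the 8 members was 0.17, and that of all genes tested was 0.01. Here a log2 change is the mean log2(FPKM + 1) of the Villin-WlscKO group minus that of the control group, which understates the change of weakly expressed genes. With FPKM rescaled to equal sums, the median over all genes moved to 0.097 and higher calls made up 77.1% of calls in place of 56.3%.

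**Figure D1:**
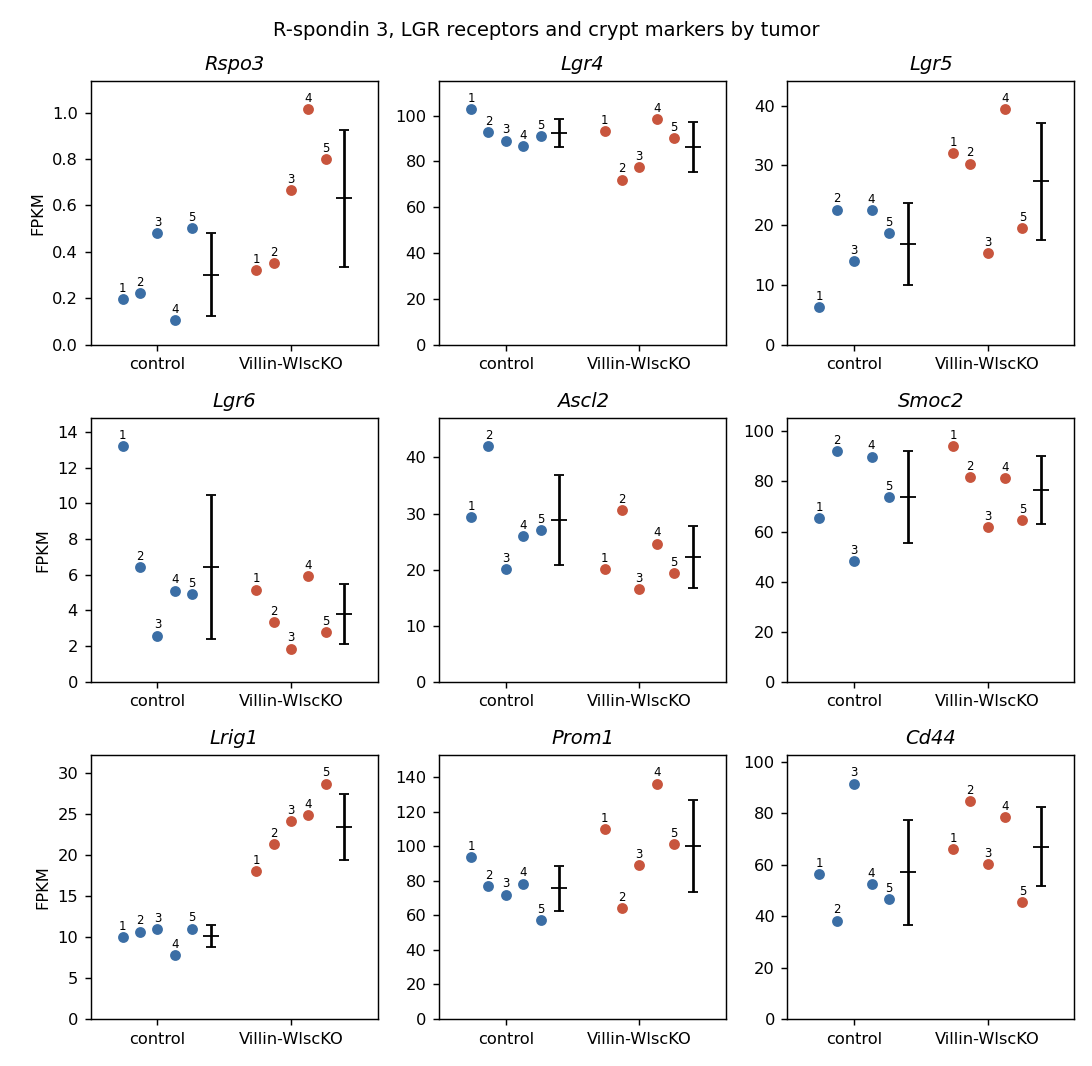
Level of each member in FPKM (vertical axes, starting at 0) in the 5 control and 5 Villin-WlscKO tumors, with points numbered by tumor and bars for the mean and SD. The Lrig1 points of the 2 groups do not overlap, with a highest control value of 11.0 FPKM and a lowest Villin-WlscKO value of 18.0 FPKM, while the points of every other member do.

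Lrig1, on chromosome 6 from 94604529 to 94700158 on the minus strand (GRCm38), encodes a transmembrane protein that restrains ErbB receptor signaling and marks intestinal stem and progenitor cells. In control tumors 1 to 5 its level was 10.04, 10.7, 11.0, 7.82 and 11.0 FPKM. In Villin-WlscKO tumors 1 to 5 it was 18.0, 21.3, 24.2, 24.9 and 28.8 FPKM. Every Villin-WlscKO tumor was above every control tumor, an arrangement that 5.33% of all genes tested also showed. The mean rose from 10.1 ± 1.34 to 23.4 ± 4.02 FPKM (SD, n = 5 each), a ratio of 2.32. On the log2 scale the change was 1.13 (standard error 0.13, 95% interval 0.84 to 1.42, limma adjusted p = 0.000501), and the two-sided exact permutation p was 0.00794, the smallest that 5 against 5 tumors allow. Lrig1 stayed past the threshold when the epithelial marker score was a covariate, with an adjusted p of 0.0363 by limma. The score nearly separated the groups, so this fit cannot tell the change of Lrig1 apart from a difference in epithelial content. Slc25a26, a mitochondrial carrier gene that overlaps Lrig1 on the opposite strand, was at 4.72 FPKM in control and 4.78 FPKM in Villin-WlscKO tumors (log2 change 0.02, limma adjusted p = 0.930). Whether strand was used in quantification is not given in the sources used here.

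Because Lrig1 was the member that rose, its promoter is shown, together with that of Ascl2, a Wnt target that did not pass. Also shown is the single window of a member that held the hexamer CTTTGA. This hexamer is a form of the letters recognized by TCF/LEF factors, the nuclear partners of beta-catenin, and other forms were not searched. Windows run from 250 bases before to 50 bases after a RefSeq start (GRCm38.p6), 5′ to 3′ on the strand of the gene, and capitals mark the hexamer CTTTGA.
Lrig1, chr6:94700096-94700395, minus strand: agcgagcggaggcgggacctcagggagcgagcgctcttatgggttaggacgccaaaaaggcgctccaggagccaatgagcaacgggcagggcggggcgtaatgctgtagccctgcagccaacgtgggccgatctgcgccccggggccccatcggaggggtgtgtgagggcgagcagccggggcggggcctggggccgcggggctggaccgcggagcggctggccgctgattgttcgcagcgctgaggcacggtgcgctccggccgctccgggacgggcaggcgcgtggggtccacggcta
Ascl2, chr7:142969215-142969514, minus strand: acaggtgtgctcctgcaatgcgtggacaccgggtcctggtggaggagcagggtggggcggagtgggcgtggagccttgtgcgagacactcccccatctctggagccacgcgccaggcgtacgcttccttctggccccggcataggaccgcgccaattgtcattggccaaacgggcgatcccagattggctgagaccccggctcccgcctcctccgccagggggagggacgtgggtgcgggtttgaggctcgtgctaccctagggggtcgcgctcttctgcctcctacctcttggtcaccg
Prom1, chr5:44094719-44095018, minus strand: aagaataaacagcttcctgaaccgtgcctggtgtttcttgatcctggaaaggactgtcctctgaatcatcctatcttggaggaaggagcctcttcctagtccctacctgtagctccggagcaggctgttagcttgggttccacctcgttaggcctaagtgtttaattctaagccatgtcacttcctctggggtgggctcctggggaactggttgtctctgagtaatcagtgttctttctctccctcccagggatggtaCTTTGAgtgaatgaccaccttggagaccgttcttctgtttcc
The hexamer was searched as CTTTGA and as its reverse complement TCAAAG. It was found in 1 of 8 windows of the 7 members that had one, Rspo1 included. Of all 32851 windows of the same length 16.0% held the hexamer. In Prom1 it began 8 bases after the start. Prom1 has another window without it, and no window was found for Rspo3, Lgr5 or Smoc2. The Lrig1 window was 73% G or C and held 35 CG dinucleotides, the Ascl2 window was 67% and held 23, and the medians of all windows were 52.7% and 7. A match or its absence in these letters says nothing about binding in the tumors.

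Among the ligands, Rspo3, made by subepithelial stromal cells and located on chromosome 10 from 29452416 to 29535867 on the minus strand, was the least abundant member. Its level was 0.196, 0.222, 0.480, 0.105 and 0.502 FPKM in control tumors 1 to 5. In Villin-WlscKO tumors 1 to 5 it was 0.321, 0.353, 0.665, 1.01 and 0.800 FPKM. Of the 5 Villin-WlscKO tumors 3 were above all control tumors. The mean was 0.301 ± 0.179 FPKM in control tumors and with the deletion 0.630 ± 0.296 FPKM (SD, n = 5 each). The gene lay under the filter of a mean of 0.5 FPKM and was left out of the fit over all genes. Its log2 change was 0.32 with a two-sided exact permutation p of 0.0794, so a difference was neither shown nor excluded. The 11 stromal markers tested, led by Col3a1, Dcn and Col1a2, summed to 298 to 1054 FPKM in control and 396 to 1208 FPKM in Villin-WlscKO tumors. None of them passed by limma and 1 was higher at an unadjusted p under 0.05, where 13.9% of all genes were. It was Grem1, with means of 4.57 FPKM in control and 10.3 FPKM in Villin-WlscKO tumors (limma adjusted p = 0.138). The part of the stromal markers in the Rspo3 values was not tested.

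Of the receptors, Lgr5 was higher on average in Villin-WlscKO tumors, but the groups overlapped and it did not pass. Its level in control tumors 1 to 5 was 6.28, 22.6, 14.0, 22.6 and 18.7 FPKM. In Villin-WlscKO tumors 1 to 5 it was 32.1, 30.3, 15.3, 39.4 and 19.5 FPKM. Tumors 1, 2 and 4 of the Villin-WlscKO group were above all controls, and control tumor 1 was the lowest of all. The means were 16.8 ± 6.88 and 27.3 ± 9.78 FPKM (SD, n = 5 each). The log2 change was 0.71 (standard error 0.35, 95% interval -0.071 to 1.49, limma adjusted p = 0.239; two-sided exact permutation p = 0.111). The interval leaves room for no difference and for a large rise. Without control tumor 1 the log2 change was 0.42, and with the epithelial score as covariate it was 1.42, neither past the threshold. Lgr5 lies on chromosome 10 from 115450311 to 115587780 on the minus strand. The gene A930009A15Rik overlaps it on the other strand at 0.583 to 0.797 FPKM in control and 0.063 to 0.462 FPKM in Villin-WlscKO tumors.

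Lgr6, the receptor best known from skin stem cells, on chromosome 1 from 134983301 to 135105276 on the minus strand, leaned the other way. Control tumors 1 to 5 had 13.2, 6.40, 2.59, 5.10 and 4.89 FPKM. Villin-WlscKO tumors 1 to 5 had 5.17, 3.34, 1.86, 5.91 and 2.79 FPKM. Control tumor 1 was highest of all, and the other 9 tumors were intermingled. The means were 6.44 ± 4.02 and 3.81 ± 1.68 FPKM (SD, n = 5 each). The log2 change was -0.55 (standard error 0.35, 95% interval -1.33 to 0.23, limma adjusted p = 0.364) and -0.28 without control tumor 1.

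Lgr4, the broadly expressed receptor of the family, on chromosome 2 from 109917647 to 110014257 on the plus strand, averaged 92.5 ± 6.17 FPKM in control tumors and, with the deletion, 86.3 ± 11.1 FPKM (SD, n = 5 each), but its values were identical to those of Lin7c in every tumor. Lin7c, a polarity gene, ends 16643 bases before Lgr4 on the same strand. The deposited values do not separate these genes, and the following values belong to both names. Control tumors 1 to 5 had 102.7, 92.8, 89.1, 86.7 and 91.0 FPKM. Villin-WlscKO tumors 1 to 5 had 93.3, 72.0, 77.4, 98.4 and 90.3 FPKM. The groups overlapped, and Villin-WlscKO tumors 2 and 3 were the lowest. The difference on the log2 scale was -0.11 (standard error 0.092, 95% interval -0.31 to 0.099, limma adjusted p = 0.525), the narrowest interval among the members.

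**Figure D2:**
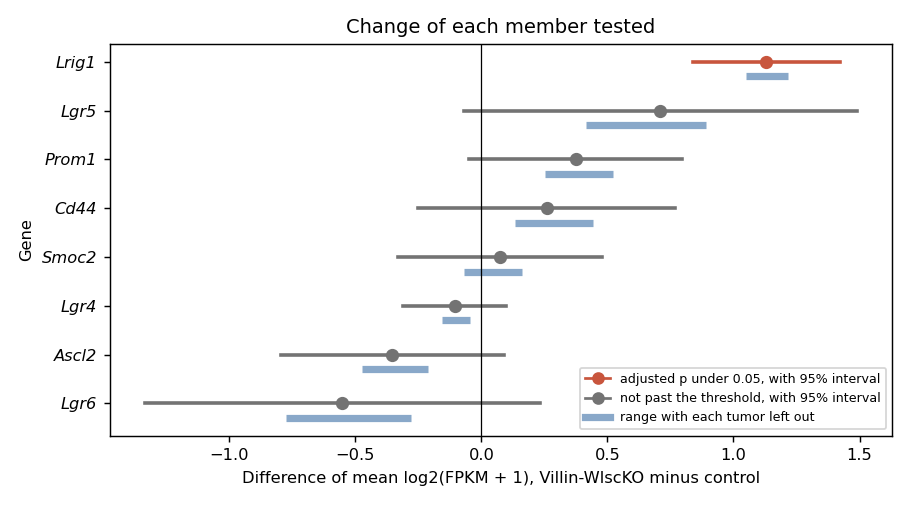
Log2 change (horizontal axis, Villin-WlscKO minus control on log2(FPKM + 1)) for the 8 members tested (rows), with 95% intervals as thin lines and the range over fits that each left out 1 tumor as thick bars. Only the interval of Lrig1, 0.84 to 1.42, lies wholly above 0, and the range of Smoc2, -0.069 to 0.16, spans 0.

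Of the 5 crypt base and progenitor markers, Lrig1 included, 4 had a positive log2 change and 1 a negative one, with a median of 0.26 and only Lrig1 past the threshold. Their mean log2(FPKM + 1) per tumor was 5.21 to 5.42 in control and 5.44 to 5.83 in Villin-WlscKO tumors, without overlap, and is given as a description with no test. This mean includes Lrig1, which separated the groups alone, while each of the other 4 markers overlapped. The lack of overlap therefore cannot be read as a trait of the whole set. Ascl2, a basic helix-loop-helix factor that maintains crypt stem cells, was at 29.3, 42.0, 20.1, 26.0 and 27.0 FPKM in control tumors 1 to 5. In Villin-WlscKO tumors 1 to 5 it was at 20.0, 30.6, 16.5, 24.6 and 19.4 FPKM. The lowest 3 tumors were all Villin-WlscKO, and the ranges overlapped. Its log2 change was -0.35 (standard error 0.20, 95% interval -0.80 to 0.088, limma adjusted p = 0.299; two-sided exact permutation p = 0.143). It was -0.21 without control tumor 2 and -0.17 with the epithelial score as covariate.

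Smoc2, a secreted matrix protein found in the Lgr5 stem cell signature and in some fibroblasts, had nearly equal means of 73.8 ± 18.2 and 76.6 ± 13.4 FPKM (SD, n = 5 each). Control tumors 1 to 5 had 65.2, 92.0, 48.1, 89.9 and 73.7 FPKM. Villin-WlscKO tumors 1 to 5 had 94.0, 81.6, 61.6, 81.4 and 64.5 FPKM. The groups overlapped over most of their ranges, and control tumor 3 was the lowest. The log2 change was 0.074 (standard error 0.18, 95% interval -0.33 to 0.48, limma adjusted p = 0.847), and the sign turned under 3 of the alternatives.

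Prom1 encodes prominin 1, a membrane protein of stem and progenitor cells also known as CD133. Control tumors 1 to 5 had 93.8, 77.1, 72.0, 78.4 and 57.2 FPKM. Villin-WlscKO tumors 1 to 5 had 110, 64.0, 89.1, 136 and 101 FPKM. Tumors 1, 4 and 5 of the Villin-WlscKO group were above all controls, and tumor 2 was below 4 of the 5. Prom1 had a log2 change of 0.37 (standard error 0.19, 95% interval -0.048 to 0.80, limma adjusted p = 0.250). It was 0.081 with the epithelial score as covariate and 0.61 without Villin-WlscKO tumors 2 and 3 (limma adjusted p = 0.0578).

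Cd44, a hyaluronan receptor and Wnt target also made by leukocytes, was at 56.3, 38.3, 91.7, 52.6 and 46.7 FPKM in control tumors 1 to 5. In the Villin-WlscKO tumors 1 to 5 it was at 66.1, 84.8, 60.3, 78.5 and 45.5 FPKM. Control tumors held both the highest and the lowest value, and the groups overlapped. For Cd44 the log2 change was 0.26 (standard error 0.23, 95% interval -0.25 to 0.77, limma adjusted p = 0.535). It was 0.13 without control tumor 2, 0.17 without Villin-WlscKO tumor 2 and 0.44 without control tumor 3, and the epithelial and stromal scores as covariates gave 0.43 and 0.15. The 10 leukocyte markers tested, led by S100a9 and S100a8, summed to 148 to 661 FPKM in control and 432 to 1096 FPKM in Villin-WlscKO tumors. Of them 2 were higher past the threshold, against 6.12% of all genes, and 6 at an unadjusted p under 0.05, against 13.9%. The 2 were Cd3e, with low means of 0.364 and 1.10 FPKM, and Cd8a, with 0.092 and 1.04 FPKM. Both calls were lost with the epithelial score as covariate, and that of Cd3e also without Villin-WlscKO tumors 2 and 3. The part of the leukocyte markers in the Cd44 values was not tested.

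The tumors were not ranked alike by these genes. Villin-WlscKO tumor 4 was the highest of all 10 tumors in Lgr5, Prom1 and Rspo3. Control tumor 1 was the lowest in Lgr5 and the highest in Lgr6. Villin-WlscKO tumor 3 was the lowest in both Lgr6 and Ascl2. The coefficient of variation in control tumors ran from 6.67% for the shared Lgr4 values to 62.4% for Lgr6, with 40.9% for Lgr5.

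Ratios between members within a tumor were computed after the values had been seen and are given without a test. The ratio of Lgr5 to Lgr6 was 0.476, 3.53, 5.40, 4.42 and 3.83 in control tumors 1 to 5. It was 6.21, 9.06, 8.22, 6.67 and 6.99 in Villin-WlscKO tumors 1 to 5. Every Villin-WlscKO ratio was above every control ratio, although neither gene separated the groups alone. The ratio of Lgr5 to Ascl2 was 0.214, 0.539, 0.695, 0.868 and 0.693 in control tumors. In Villin-WlscKO tumors it was 1.60, 0.991, 0.928, 1.60 and 1.00, again without overlap, with a narrow gap between the groups. Of the 28 pairs of members without Lrig1 these 2 did not overlap, and of the 8 pairs with Lrig1 another 2 did not, its ratios to Lgr4 and to Ascl2. Over all pairs of the 16249 genes tested that were above 0 in every tumor, 11.4% of ratios did not overlap, so the 4 of 36 member pairs are near this background. Among pairs of genes that each overlapped alone the share was 3.00%, against 2 of 28 here, a count too small to set the members apart.

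**Figure D3:**
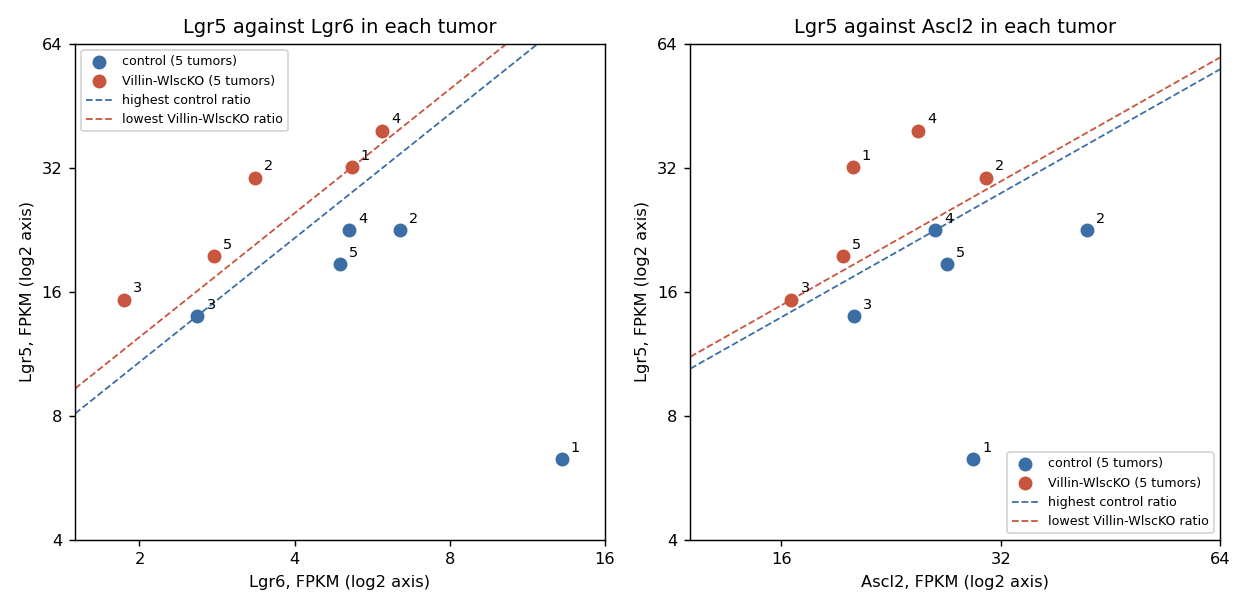
Lgr5 against Lgr6 (left) and against Ascl2 (right) in FPKM on log2 axes, with 1 numbered point per tumor and dashed lines at the highest control ratio and the lowest Villin-WlscKO ratio. All 5 Villin-WlscKO tumors lie on or above the line of the lowest Villin-WlscKO ratio, 6.21 for Lgr6 and 0.928 for Ascl2, and all 5 control tumors lie on or below the line of the highest control ratio, 5.40 and 0.868.

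The machinery on which R-spondins act was lower or not past the threshold. Of the 11 genes tested, 2 fell and 0 rose by limma, with 5 lower and 0 higher at an unadjusted p under 0.05, and the median log2 change was -0.18. Over all genes 4.75% fell, and 11.9% were lower at an unadjusted p under 0.05. Znrf3, the ubiquitin ligase that R-spondins remove and itself a Wnt target, fell from 18.2 ± 2.81 to 10.7 ± 1.16 FPKM (SD, n = 5 each; log2 change -0.71, limma adjusted p = 0.00296). Dvl2, a cytoplasmic transducer of Frizzled, fell from 9.09 to 6.26 FPKM (log2 change -0.48, limma adjusted p = 0.0236), a call lost in 7 of 23 alternatives. Rnf43, the partner of Znrf3 and named after its values were seen, had means of 17.0 and 10.3 FPKM (log2 change -0.71, limma adjusted p = 0.0857).

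Of 20 other crypt and stem cell genes, 3 rose and 3 fell, against 6.12% and 4.75% of all genes, with a median log2 change of -0.11. Those that fell were Axin2, Sp5 and Tcf7, which are Wnt targets, but not every Wnt target of the list passed. Lef1, which the paper calls a Wnt target, had means of 6.10 and 4.23 FPKM (log2 change -0.51, limma adjusted p = 0.309). Axin2, which encodes a feedback inhibitor, went from 158 to 96.5 FPKM (log2 change -0.71, limma adjusted p = 0.00121). Sp5, a transcription factor, went from 56.5 to 34.7 FPKM (log2 change -0.69, limma adjusted p = 0.000583). Tcf7, the TCF1 gene, went from 51.6 to 23.6 FPKM (log2 change -1.09, limma adjusted p = 0.00156).

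Those that rose were Aqp4, Slc12a2 and Rgmb. The water channel gene Aqp4 went from 4.43 to 34.2 FPKM (log2 change 2.80, limma adjusted p = 0.00256). Slc12a2, an ion cotransporter of crypt cells, went from 54.2 to 93.2 FPKM (log2 change 0.77, limma adjusted p = 0.00389). The BMP co-receptor gene Rgmb went from 7.82 to 12.2 FPKM (log2 change 0.60, limma adjusted p = 0.0467) and kept its call in 10 of 24 alternatives.

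Deep crypt secretory cells, the goblet-like cells that sit between the Lgr5 stem cells of the colon, were the other neighbors examined. Of the 9 genes listed for them 4 rose and 0 fell by limma, and the median log2 change was 1.29. At an unadjusted p under 0.05, 6 were higher and 0 lower. Over all genes 6.12% rose, and 13.9% were higher at an unadjusted p under 0.05. Reg4, a lectin that marks these cells, rose from 205 to 668 FPKM (log2 change 1.83, limma adjusted p = 0.00341). Spink4, a protease inhibitor of goblet cells, rose from 6063 to 21078 FPKM (log2 change 2.04, limma adjusted p = 0.0123). Agr2, a disulfide isomerase needed for mucin, had a log2 change of 1.94 (limma adjusted p = 0.0142), and Spdef, a transcription factor of secretory maturation, of 1.71 (limma adjusted p = 0.0232). The other 5 genes did not pass by limma. Atoh1 and Tff3 had log2 changes of 1.29 and 1.22. Those of Kit, Dll1 and Dll4 were 0.34, 0.040 and 0.037 (limma adjusted p = 0.451, 0.921 and 0.896). The rise was therefore not shared by all genes of the list. Spink4, Agr2 and Spdef are not particular to deep crypt secretory cells, so their values cannot tell these cells from other goblet cells. Without Villin-WlscKO tumors 2 and 3, the calls of Spink4 and Spdef were lost, and that of Spdef was also lost without Villin-WlscKO tumor 3, Villin-WlscKO tumor 5 or control tumor 4. With the epithelial score as covariate, only Axin2, Sp5 and Slc12a2 of the 12 genes called in these 3 lists remained past the threshold, and 388 of all genes tested did in place of 1822. The score nearly separated the groups, so this fit cannot assign a lost call to epithelial content.

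**Figure D4:**
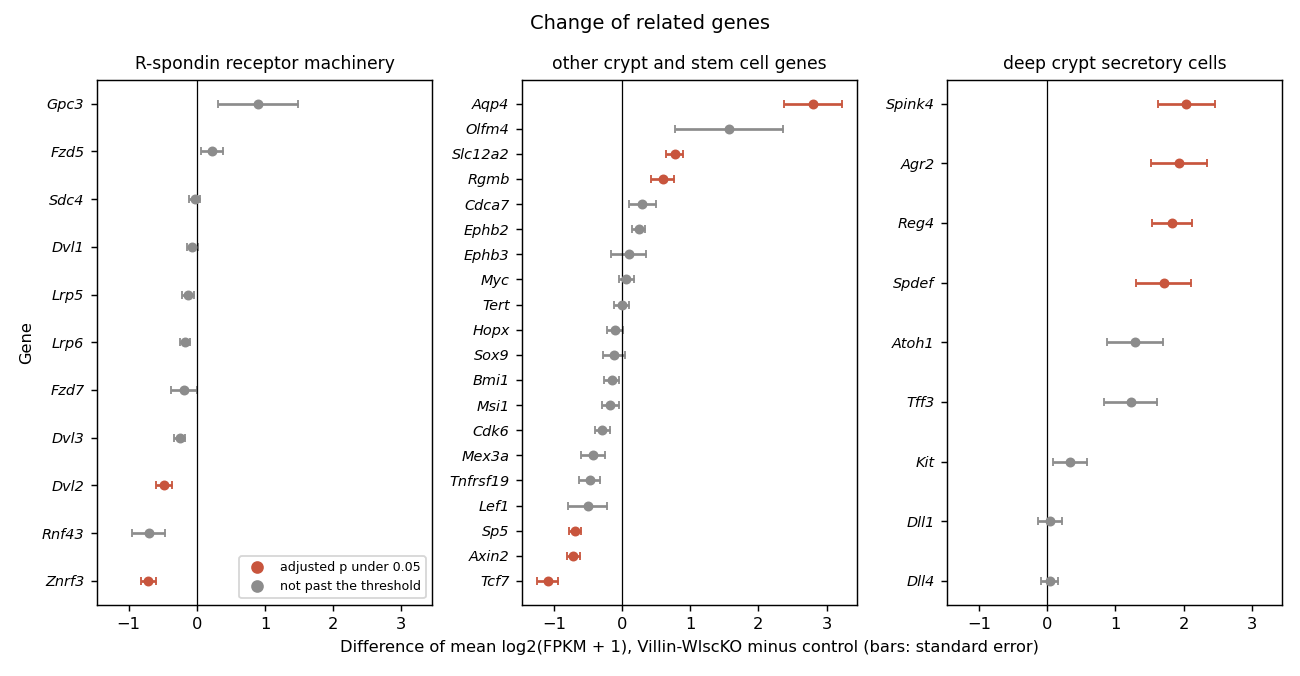
Log2 change (horizontal axis, Villin-WlscKO minus control on log2(FPKM + 1)) for the genes (rows) of the R-spondin receptor machinery, of other crypt and stem cell genes and of deep crypt secretory cells, with bars for the standard error and color for an adjusted p under 0.05. Colored points lie only below 0 in the first list, on both sides in the second from -1.09 for Tcf7 to 2.80 for Aqp4, and only above 0 in the third.

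Marker lists of other tissue compartments were described beside these results. The 7 colonocyte genes tested had a median log2 change of 0.91, and Krt20 alone of them passed, rising from 176 to 327 FPKM (limma adjusted p = 0.0156). The 7 squamous genes had a median of 0.81 and summed to 162 to 330 FPKM in control and 159 to 1593 FPKM in Villin-WlscKO tumors, with the high sums in tumors 2 and 3. None of the squamous, smooth muscle or endothelial markers passed by limma. At an unadjusted p under 0.05, 1 squamous marker was higher, 1 endothelial marker was lower and 0 smooth muscle markers were either. Over all genes 13.9% were higher and 11.9% lower at that threshold. The part of these marker lists in the changes of the crypt genes was not tested.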

How the data were processed

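RNA of 10 tumors was sequenced from TruSeq stranded mRNA libraries. Read quality was checked by the authors with FastQC, alignment to GRCm38.p5 was done with TopHat 2.1.1, and levels came from Cufflinks 2.2.1 and Cuffdiff, the latter run on unmerged transcripts to give each tumor its own value. The deposited values are FPKM, normalized by the authors for length and library. The annotation release is not given in the sources used here. FPKM keeps no read depth, so no counting interval could be given.

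Values were converted to log2(FPKM + 1), genes with a mean of at least 0.5 FPKM were kept, and Villin-WlscKO was compared with control by limma 3.58.1 (R 4.3.3; lmFit and eBayes with trend, two-sided, Benjamini-Hochberg over all 16757 genes tested, threshold 0.05). Single genes were also tested with a two-sided exact permutation test over the 252 arrangements of the tumors, on mean log2(FPKM + 1). The script was tested on simulated data. Positions are from GENCODE M21 and promoter windows from RefSeq.

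The members and lists were chosen with earlier results of these data known. Named were the members, every gene past the threshold in the 3 related lists, up to 3 of the most abundant genes per marker list, and Wls. Cd3e, Cd8a, Krt20, Rnf43, Lef1, Grem1, Atoh1, Tff3, Kit, Dll1 and Dll4 were added after their values were seen. So were Xist, Eif2s3y and genes that overlap or share values with a member. Alternatives changed the pseudocount, the scaling, the filter, the variance model and covariates, added a replicate block, counted identical entries once, or left out tumors.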

Additional observations from a re-analysis of the deposited data

How the results depend on the processing

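Lrig1 passed the threshold in 24 of 24 alternatives with an adjusted p, with log2 changes between 0.92 and 1.22 and between 1.05 and 1.22 when each tumor was left out. The other members tested passed in none. The number of genes past the threshold fell from 1822 to 388 with the epithelial score as covariate and to 1101 without Villin-WlscKO tumors 2 and 3. Leaving out those 2 tumors also turned the log2 change of Lgr4 to 0.025. That of Smoc2 became -0.0012 with quantile normalization and ranged from -0.069 to 0.16 when each tumor was left out. Rspo3 ranged from 0.24 to 0.39 when each tumor was left out, with exact permutation p between 0.0476, without Villin-WlscKO tumor 1, and 0.159. A pseudocount of 0.1 gave Rspo3 a log2 change of 0.88 (exact permutation p = 0.0714), and without the filter its limma adjusted p was 0.231. Genes lower past the threshold fell from 796 to 412 with equal FPKM sums and to 145 with the epithelial score as covariate. The cause was not tested.

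The sources used here do not say whether tumors that share a number are pairs. Deviations from the group means of same-numbered tumors correlated between -0.087 and 0.162 over genes, which cannot show whether they were paired. In the fit with a replicate block, 1627 genes passed, and of the members 1, Lrig1, with a limma adjusted p of 0.00487. The limma adjusted p of Ascl2 was 0.0526 with the block and 0.299 without it. For Lgr6 it was 0.148 with the block and 0.364 without it. No tumor among the 18 groups of member values stood apart by Dixon's criterion. The read depth is unknown, and the values of Lgr4 cannot be separated from those of Lin7c.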
